A study of Mus musculus with 12 samples.

Results

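Cathepsins are the proteases of the lysosome, the acidic compartment in which cells break down proteins and matrix taken up from outside. Most are cysteine proteases, and they are held in check outside the lysosome by cystatins, small inhibitors of which cystatin C (Cst3) is the main secreted one. In cartilage, cathepsins are known for degrading collagen and aggrecan in acidic spaces around cells. The genes followed here are 9 cathepsins (Ctsa, Ctsb, Ctsc, Ctsd, Ctsh, Ctsk, Ctsl, Ctss and Ctsz) and Cst3. They were found by symbol and make up 10 of the 57010 Ensembl gene IDs counted. All 10 passed the filter on low counts. Their positions below are those of GRCm38 in GENCODE M21, while the authors' build was GRCm39.

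The RNA came from primary chondrocytes of mice, the cells that build cartilage matrix, of a genotype labelled wild type in all samples. There were 4 libraries labelled Control, 4 labelled WT, from cells given a wild-type plasmid, and 4 labelled SIRT5F101L, whose cells received a plasmid with that mutant of SIRT5. SIRT5 is known as an enzyme of mitochondria that takes malonyl and similar groups off lysines. What the wild-type plasmid encodes, what the Control cells received, the strain and age of the mice and the time after transfection are not given in the labels. The labels also do not say that libraries came from separate cultures, so p-values measure the spread between these libraries, which may be technical. Replicate numbers only name libraries in accession order.

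Poly(A) RNA was counted per gene, with 15095357 to 24242139 counts per library. Levels are given as CPM, the count relative to a fixed library size after TMM scaling, which corrects for differences in composition between libraries. Sirt5 itself had 9 to 16 counts in Control, 1 to 9 in WT and 9 to 19 in SIRT5F101L libraries. No rise with either plasmid was detected in these low counts, and the groups are named by their labels throughout. The log2 fold change of Sirt5 against Control was -0.86 for WT (edgeR adjusted p 0.143) and 0.03 for SIRT5F101L (edgeR adjusted p 0.954). Why the counts were low was not tested. The chondrocyte marker Col2a1 stood at 6719 ± 691 CPM (SD, n = 4) in Control, 1665 ± 56.2 in WT and 1312 ± 95.2 in SIRT5F101L libraries. All 10 chondrocyte markers listed had counts in every library. All 3998 IDs of the X, Y and mitochondrial chromosomes were listed at 0, lysosomal genes on X among them.

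The levels of the 10 genes in Control cells were compared per kilobase of the principal transcript. Cst3 was the most abundant, at 1856 ± 50.3 CPM per kb (SD, n = 4). Ctsl followed at 1057 ± 41.3 CPM per kb and Ctsb at 469 ± 18.4 CPM per kb, and both encode broad endopeptidases that do much of the lysosome's protein breakdown. The carboxypeptidase Ctsz, at 323 ± 19.0 CPM per kb, and the collagenase Ctsk, at 294 ± 15.2, overlapped in their ranges. So did Ctsa, a serine carboxypeptidase that also stabilises lysosomal galactosidase and neuraminidase (226 ± 7.35 CPM per kb), and the aspartic protease Ctsd (205 ± 14.2 CPM per kb). Ctsh, an aminopeptidase, lay at 72.6 ± 3.21 CPM per kb and Ctss, an elastase-like protease of antigen-presenting cells, at 19.2 ± 1.377 CPM per kb. Ctsc, the dipeptidyl peptidase that activates granule serine proteases of leukocytes, was lowest at 3.63 ± 0.176 CPM per kb. The order depends on the transcript length chosen. With the length of all annotated exons Ctsb (368 CPM per kb) stood above Ctsl (321), and Cst3 stayed first at 1261. In WT and SIRT5F101L libraries Ctsl, at 949 ± 88.1 and 894 ± 145 CPM per kb of principal transcript, stood above Cst3, at 587 ± 62.2 and 533 ± 111. With all exons Cst3 stayed first there as well, at 399 and 362 CPM per kb.

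Against Control, 8 of the 10 genes differed in WT libraries by edgeR's quasi-likelihood test, 7 lower and 1 higher. Over all 14253 genes tested, 56.8% differed in this comparison, 28.1% lower and 28.7% higher. In SIRT5F101L libraries all 10 differed, 9 lower and 1 higher, where 60.7% of all genes tested differed, 30.7% lower and 30% higher. The median log2 fold change of the 10 genes was -0.38 in WT and -0.485 in SIRT5F101L libraries, against -0.01 and -0.02 over all genes tested. The same 4 Control libraries enter both comparisons. The groups did not overlap for 8 of 10 genes in each comparison, where 53.5% and 51.3% of all genes tested showed no overlap. Cst3 and Ctss fell about alike and by far more than the other genes that fell, Ctsa, Ctsd and Ctsk fell to between 62.8% and 70.5% of Control, Ctsb and Ctsh by less, and Ctsc rose.

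**Figure D1:**
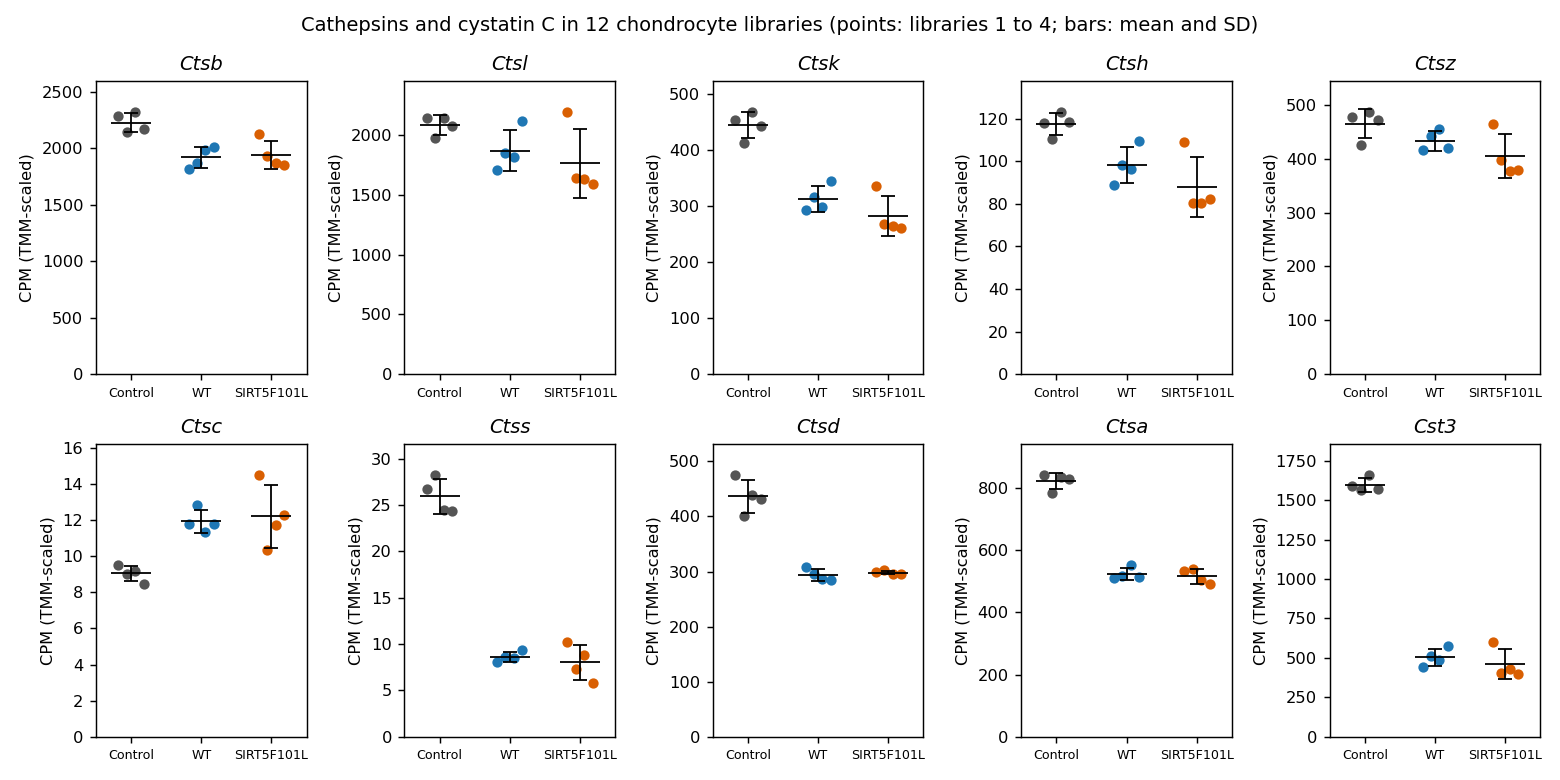
CPM of each gene in the 12 libraries (points, 4 per group from replicate 1 on the left to replicate 4 on the right, black bars mean and SD), on linear axes from 0. Cst3 lies between 1564 and 1658 CPM in Control and between 397 and 599 CPM in all plasmid libraries, while Ctsl overlaps between all 3 groups.

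Cst3 (ENSMUSG00000027447, chr2:148871722-148875692, minus strand) was at 1591, 1564, 1658 and 1569.9 CPM in Control replicates 1 to 4. It was at 445, 512, 488 and 573 CPM in WT and at 599, 405, 433 and 397 CPM in SIRT5F101L libraries. All 8 plasmid libraries thus lay far below the lowest Control library. The log2 fold change was -1.66 (adjusted p 3.67e-11 by edgeR, SE 0.11) for WT and -1.80 (adjusted p 1.04e-11 by edgeR, SE 0.11) for SIRT5F101L, which left 31.6% and 28.7% of the Control level. Without SIRT5F101L replicate 1, the highest of its group, the latter was -1.95. The 10 chondrocyte markers had a summed level of 7870 to 9840 CPM in Control, 2230 to 2380 in WT and 1780 to 2000 in SIRT5F101L libraries. Most of that sum was Col2a1 and Comp, which was at 2044 ± 234, 213 ± 10.9 and 189 ± 8.19 CPM in the 3 groups. Of the 10 markers, 8 fell in each comparison, where 28.1% of all tested genes fell in WT and 30.7% in SIRT5F101L libraries, but Hapln1 rose in both (log2 fold changes 0.25 and 0.18) and Acan rose in WT libraries (0.47). The 6 fibroblast markers summed to 30100 to 36000 CPM in Control, 10900 to 12200 in WT and 10800 to 11900 in SIRT5F101L libraries, with Col1a1, Col1a2 and Col3a1 making up most of it. In each comparison 4 of 6 fell, against the same 28.1% and 30.7% of all tested genes, and 2 rose. Dcn rose from 414 ± 12.01 to 1125 ± 90.4 and 1304 ± 110.3 CPM (SD, n = 4) and Pdgfra from 200.1 ± 10.9 to 263 ± 13.1 and 307 ± 16.5 CPM. The markers named here were picked after their values were seen. Their part in the fall of Cst3 was not tested. In such bulk samples fewer cells of a type and less RNA per cell cannot be told apart.

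Ctss (ENSMUSG00000038642, chr3:95526786-95556403, plus strand) was at 26.7, 28.2, 24.5 and 24.4 CPM in Control replicates 1 to 4. In WT libraries it was at 8.09, 8.60, 8.55 and 9.36 CPM, and in SIRT5F101L libraries at 10.3, 7.28, 8.78 and 5.78 CPM. The Control libraries were all far above every plasmid library. The log2 fold change was -1.58 (adjusted p 1.66e-09 by edgeR, SE 0.13) for WT and -1.68 (adjusted p 6.32e-10 by edgeR, SE 0.13) for SIRT5F101L. These levels rest on 446 to 557 counts per Control library and 102 to 219 per plasmid library, and Ctss and Ctsc had the fewest counts of the 10 genes.

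Markers of macrophages and leukocytes, cells that are known for high Ctss, were measured beside it. Of 16 such genes, 15 had counts in every library and Itgam was listed at 0 in all. Their summed level was 227 to 266 CPM in Control, 145 to 168 in WT and 153 to 201 in SIRT5F101L libraries. Of 15 tested, 14 fell in WT and 13 in SIRT5F101L libraries, against 28.1% and 30.7% of all tested genes. Their median log2 fold changes were -1.70 and -1.61. Those of the chondrocyte markers were -1.57 and -2.16, and those of the fibroblast markers -1.33 and -1.27. Falls of about the size of that of Ctss were thus not particular to this list. The macrophage receptor gene Adgre1 fell from 7.30 ± 1.37 to 1.78 ± 0.510 and 1.93 ± 0.395 CPM (SD, n = 4), and the complement gene C1qb from 17.8 ± 1.36 to 4.20 ± 0.813 and 4.04 ± 1.07 CPM. Cd14 was the marker that rose, from 12.4 ± 1.02 to 51.3 ± 2.96 and 59.8 ± 8.85 CPM. These 3 markers were picked after their values were seen. The part of such cells in the fall of Ctss was not tested.

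The stretch upstream of the Ctss start site is shown because it holds a match to the core of the interferon-stimulated response element, although Ctss fell in these libraries. It spans chr3:95526536-95526785 of GRCm38.p6 on the plus strand and ends at the base before the RefSeq start. The capitals mark the match, which begins 21 bases and ends 12 bases upstream of the start.
Ctss: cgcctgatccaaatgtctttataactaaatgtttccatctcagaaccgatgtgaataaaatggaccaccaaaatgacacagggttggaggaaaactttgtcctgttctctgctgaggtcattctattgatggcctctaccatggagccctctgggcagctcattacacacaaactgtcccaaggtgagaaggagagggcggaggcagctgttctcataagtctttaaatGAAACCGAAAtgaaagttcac

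The search covered 4 motifs on both strands in the 250 bases before each RefSeq start: the interferon element core (GAAA, any 2 bases, GAAA), the STAT-binding GAS motif TTCNNNGAA, the E-box CACGTG, and the CLEAR element known from lysosomal genes, which is the E-box with GT before and AC after it. Of 32851 such windows in the mouse table, 2.98% hold the interferon core, 7.02% the GAS motif, 6.02% the E-box and 0.24% the full CLEAR element. Windows were found for 8 of the 10 genes (not Ctsb or Ctsh). The exact letters of the CLEAR element were in none of these windows, and near matches to it were not counted. The E-box was in the windows of Ctsd and Ctsl. Ctsa has a pair of windows, of which the one at the annotated gene start held no match and the one at a start inside the gene held an E-box. Ctsd has a pair of E-boxes, shown with up to 10 bases on each side and the E-box in capitals, at chr7:142388057-142388077 and chr7:142387910-142387935 of GRCm38.p6 on the minus strand. They begin 245 and 98 bases upstream of the RefSeq start, and the proximal one lies inside the gene span that GENCODE M21 gives. The windows of Ctsl and Cst3 also reach into the spans given there.
Ctsd distal: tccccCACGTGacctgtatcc
Ctsd proximal: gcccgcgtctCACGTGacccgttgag
The window of Ctsc held a GAS match, and those of Ctsk, Ctsz and Cst3 held none of the 4 motifs. A match is a description of these letters only.

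Ctsk (ENSMUSG00000028111) is the collagen-cleaving cathepsin of bone resorption. In GRCm38 it spans chr3:95499256-95509362, with 17423 bases between its end and the start of Ctss on the same strand. Ctsk was at 454, 414, 468 and 443 CPM in Control replicates 1 to 4, at 293, 317, 299 and 345 CPM in WT and at 336, 268, 264 and 261 CPM in SIRT5F101L libraries. The plasmid libraries were all below Control, and SIRT5F101L replicate 1 was level with the WT libraries. The log2 fold change was -0.50 (adjusted p 1.46e-05 by edgeR, SE 0.08) for WT and -0.66 (adjusted p 4.68e-07 by edgeR, SE 0.08) for SIRT5F101L. Of 9 osteoclast markers, Acp5 was listed at 0 in every library, Dcstamp in all plasmid libraries and Calcr in all SIRT5F101L libraries. Their summed level went the other way from Ctsk, from 60.7 to 69 CPM in Control to 294 to 323 in WT and 294 to 334 in SIRT5F101L libraries. Itgb3 (8.38, 150 and 153 CPM) and Nfatc1 (53.3, 155 and 162 CPM) made up most of that sum, and Ocstamp and Oscar were below 1 CPM on average in every group.

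Ctsl and Ctsb, the abundant endopeptidases, changed little. Ctsb (ENSMUSG00000021939, chr14:63122462-63145923, plus strand) was at 2284, 2139, 2315 and 2164 CPM in Control replicates 1 to 4, at 1818, 1864, 1985 and 2013 CPM in WT and at 2122, 1926, 1864 and 1846 CPM in SIRT5F101L libraries. The plasmid libraries were all lower, by small margins, and the log2 fold changes were -0.21 (adjusted p 0.00624 by edgeR, SE 0.06) and -0.20 (adjusted p 0.00926 by edgeR, SE 0.06). Ctsl (ENSMUSG00000021477, chr13:64359337-64370890, minus strand) was at 2145, 1973, 2145 and 2071 CPM in Control, at 1705, 1847, 1812 and 2114 CPM in WT and at 2188, 1639, 1635 and 1586 CPM in SIRT5F101L libraries. WT replicate 4 and SIRT5F101L replicate 1 lay within or above the Control range, so the groups overlapped. Its log2 fold change of -0.16 (SE 0.09) in WT libraries did not pass (edgeR adjusted p 0.145), and -0.24 (SE 0.09) in SIRT5F101L libraries passed (edgeR adjusted p 0.0250). That call for SIRT5F101L was lost without any one of Control replicates 1 and 3 and SIRT5F101L replicates 2, 3 and 4 (edgeR adjusted p 0.0587 to 0.0866). Over all 21 alternatives the log2 fold change in SIRT5F101L libraries ran from -0.42 to -0.19, and it passed in 16 of them. In WT libraries Ctsl passed with a correction for transcript length (-0.28, edgeR adjusted p 0.031) and without SIRT5F101L replicate 1 (-0.16, edgeR adjusted p 0.0255).

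Of the exopeptidases, Ctsh fell in both plasmid groups, Ctsz passed the test in SIRT5F101L libraries but not in WT libraries, and Ctsc rose in both. Ctsh (ENSMUSG00000032359, chr9:90054152-90076089, plus strand) was at 118, 110.4, 123 and 119 CPM in Control replicates 1 to 4, at 88.6, 98.1, 96.5 and 109 CPM in WT and at 109, 80.1, 80.4 and 82.1 CPM in SIRT5F101L libraries. The highest plasmid libraries lay just under the lowest Control library. The log2 fold changes were -0.26 (adjusted p 0.0168 by edgeR, SE 0.09) and -0.42 (adjusted p 0.000383 by edgeR, SE 0.09), and the former was lost without WT replicate 1 (-0.21, edgeR adjusted p 0.0634). Ctsz (ENSMUSG00000016256, chr2:174427493-174439039, minus strand) was at 425 to 486 CPM in Control, 415 to 455 in WT and 376 to 464 in SIRT5F101L libraries. Its groups overlapped, with log2 fold changes of -0.10 (adjusted p 0.212 by edgeR, SE 0.07) and -0.20 (adjusted p 0.0169 by edgeR, SE 0.07). The latter call was lost with the length correction (-0.05, edgeR adjusted p 0.430) and without any one of Control replicate 3 and SIRT5F101L replicates 3 and 4 (edgeR adjusted p 0.053 to 0.0688).

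Ctsc (ENSMUSG00000030560, chr7:88278085-88310888, plus strand) was at 9.53, 9.02, 9.16 and 8.47 CPM in Control replicates 1 to 4, at 11.8, 12.8, 11.3 and 11.8 CPM in WT and at 14.5, 10.3, 11.7 and 12.3 CPM in SIRT5F101L libraries. All plasmid libraries were higher than all Control libraries, with 155 to 292 counts behind each value. The log2 fold changes were 0.40 (adjusted p 0.00437 by edgeR, SE 0.11) and 0.43 (adjusted p 0.00194 by edgeR, SE 0.11).

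The cathepsins that are not cysteine proteases, and so are not targets of cystatin C, both fell. Ctsd (ENSMUSG00000007891, chr7:142375911-142388038, minus strand) was at 475, 401, 439 and 432 CPM in Control replicates 1 to 4, at 309, 295, 287 and 285 CPM in WT and at 299, 302, 295 and 296 CPM in SIRT5F101L libraries. The 4 SIRT5F101L libraries were nearly level and well under Control. The log2 fold changes were -0.57 (adjusted p 4.72e-08 by edgeR, SE 0.06) and -0.55 (adjusted p 7.49e-08 by edgeR, SE 0.06). Ctsa (ENSMUSG00000017760, chr2:164832873-164841032, plus strand) was at 842, 783, 836 and 829 CPM in Control, at 509.6, 517, 553 and 515 CPM in WT and at 535, 539.8, 503 and 491 CPM in SIRT5F101L libraries. No plasmid library came near the Control range, and the log2 fold changes were -0.65 (adjusted p 4.27e-09 by edgeR, SE 0.06) and -0.67 (adjusted p 2.61e-09 by edgeR, SE 0.06). In GENCODE M21, whose build is not the authors', 17.4% of Ctsa exon sequence overlaps Pltp and Neurl2. Pltp fell by 2.88 on the log2 scale in each comparison, and reads in the shared part cannot be told apart without strand. For Ctsd, 34.4% of exon sequence overlaps the predicted gene Gm49369, which had 0 to 6 counts per library. For Ctsl the overlap with predicted genes was 26.8%, and for Ctsb 12.8% overlaps Fdft1, so the levels of these genes are uncertain.

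**Figure D2:**
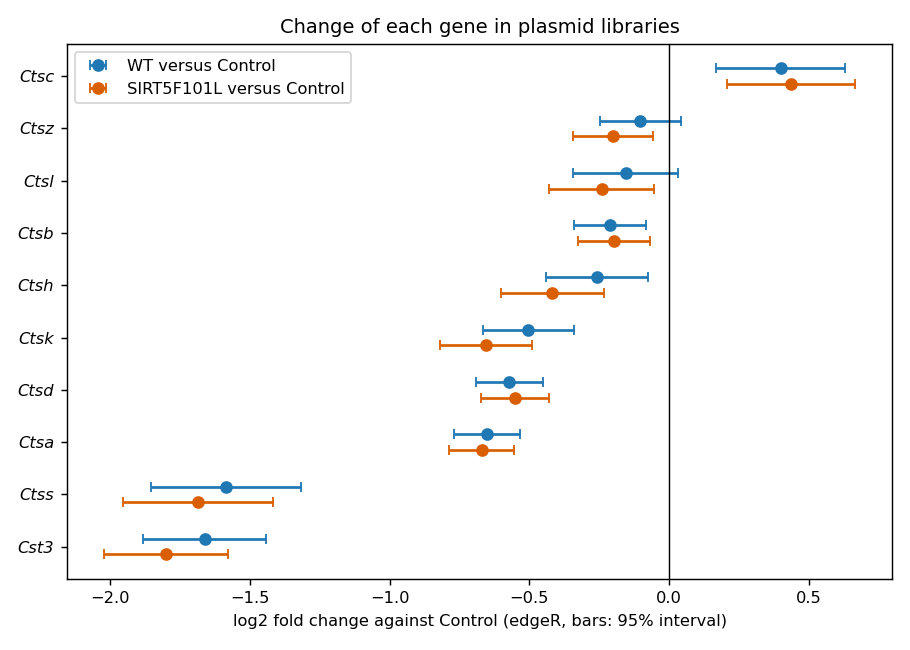
Log2 fold change of each gene against Control (x axis) in WT (blue) and SIRT5F101L (orange) libraries, with 95% intervals from edgeR. Cst3 and Ctss stand apart below -1, Ctsc alone lies above 0, and the WT intervals of Ctsz and Ctsl cross 0.

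The balance of the cysteine cathepsins and their inhibitor was described from summed levels per kilobase. The 7 cysteine cathepsins (Ctsb, Ctsc, Ctsh, Ctsk, Ctsl, Ctss and Ctsz) summed to 2113 to 2321 CPM per kb in Control, 1796 to 2095 in WT and 1689.9 to 2183 in SIRT5F101L libraries. Their sum per unit of Cst3 was 1.243, 1.162, 1.203 and 1.217 in Control replicates 1 to 4. It was 3.47, 3.22, 3.39 and 3.14 in WT and 3.13, 3.72, 3.42 and 3.66 in SIRT5F101L libraries. The transcript ratio was therefore 2.74 and 2.89 times that of Control in the mean, with no overlap between Control and plasmid libraries. With the length of all exons it was 2.69 and 2.84 times. The summed cathepsins stood at 0.864 and 0.820 of the Control mean and Cst3 at 0.316 and 0.287, so the ratio rose through Cst3 alone, and the lower cathepsin sum made the rise smaller than the 3.16- and 3.48-fold fall of Cst3. No test was made of these sums.

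**Figure D3:**
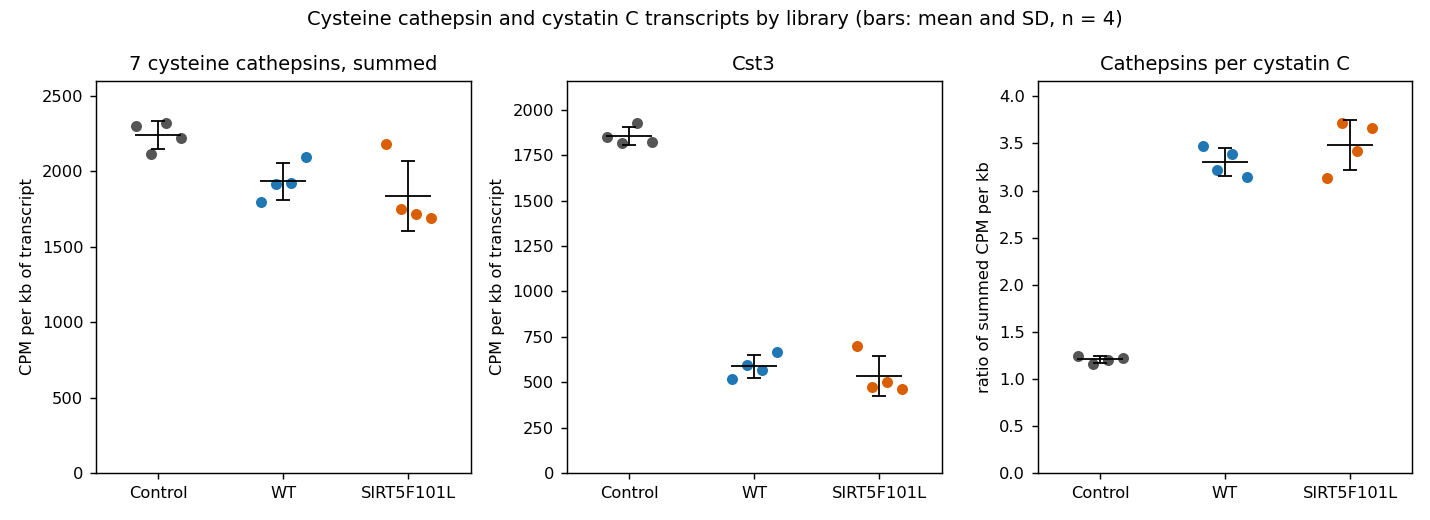
Summed level of 7 cysteine cathepsins (left), level of Cst3 (middle), both in CPM per kb of principal transcript, and their ratio (right) in each library (points, bars mean and SD, n = 4, axes from 0). The ratio lies between 1.16 and 1.24 in Control and between 3.13 and 3.72 in the 8 plasmid libraries.

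The mutant plasmid was set directly against the wild-type plasmid. None of the 10 differed by edgeR's test or by DESeq2, none had an unadjusted p under 0.05, and no gene was free of overlap between the groups. Over all genes tested, 0.0421% (6 genes) differed, 11.9% had an unadjusted p under 0.05 and 4.02% did not overlap. The intervals bound how large a difference these libraries allow. For Cst3 the log2 difference was -0.14 (95% interval -0.35 to 0.08, edgeR adjusted p 0.581), which runs from 0.783 to 1.06 times the WT level. For Ctsk it was -0.15 (-0.31 to 0.01, edgeR adjusted p 0.441) and for Ctsh -0.16 (-0.34 to 0.02, edgeR adjusted p 0.465). For Ctss, the widest interval, it was -0.10 (-0.39 to 0.19, edgeR adjusted p 0.789). For Ctsd it was 0.02 (-0.10 to 0.14, edgeR adjusted p 0.911) and for Ctsa -0.02 (-0.14 to 0.10, edgeR adjusted p 0.917).

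The count of 0 depended on SIRT5F101L replicate 1, which was the highest of its group for 8 of the 10 genes. Ctsa and Ctsd were the exceptions. The other groups also had a library at one end, as WT replicate 1 and Control replicate 2 were each lowest of their group for 8 genes. Without SIRT5F101L replicate 1, 5 genes were lower in SIRT5F101L than in WT libraries by edgeR's test. Of all 14528 genes then tested, 15.2% differed, 8.58% lower. Cst3 was at -0.29 (adjusted p 0.00324 by edgeR, SE 0.07), Ctsh at -0.28 (adjusted p 0.00378 by edgeR, SE 0.06) and Ctsk at -0.25 (adjusted p 0.00587 by edgeR, SE 0.06). Ctsl was at -0.21 (adjusted p 0.0293 by edgeR, SE 0.06) and Ctsz at -0.17 (adjusted p 0.0462 by edgeR, SE 0.06). Ctsd, at 0.02, and Ctsa, at -0.03, barely moved. Leaving out any one of the other 11 libraries called none of the 10 genes.

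**Figure D4:**
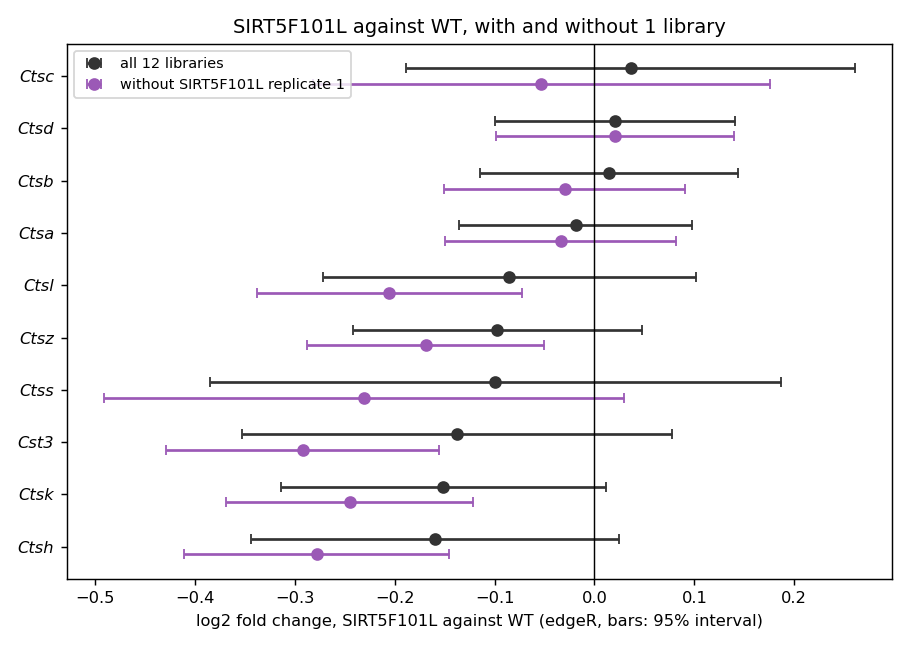
Log2 fold change of SIRT5F101L against WT (x axis) for each gene, with 95% intervals from edgeR, from all 12 libraries (black) and without SIRT5F101L replicate 1 (purple). Every black interval crosses 0, and the purple intervals of Cst3, Ctsh, Ctsk, Ctsl and Ctsz do not.

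Other genes of the lysosome were counted from lists, to set the cathepsins beside the rest of the organelle. Their counts stand against 28.1% of all tested genes lower and 28.7% higher in WT, and 30.7% lower and 30% higher in SIRT5F101L libraries. Of 11 other lysosomal proteases 8 were tested, and in each comparison with Control 5 fell and 1 rose, with a median log2 fold change of -0.42 in WT and -0.56 in SIRT5F101L libraries. Ctsf, a further cysteine cathepsin, fell from 82.4 ± 10.9 to 30.5 ± 3.19 and 32.2 ± 5.21 CPM (SD, n = 4), and Cpq, a carboxypeptidase, from 154 to 75.7 and 80.3 CPM. Ctsw, a cathepsin of cytotoxic lymphocytes, rose by 1.52 and 1.32 on the log2 scale, to 3.96 ± 0.127 and 3.41 ± 0.749 CPM. Ctsg and Napsa were listed at 0 in all libraries, and Ctse was too low to test.

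Among 30 tested lysosomal hydrolases and activators, 16 fell, 1 rose and 13 did not pass in each comparison, with median log2 fold changes of -0.18 in both. The largest falls were those of Hexa, a subunit of hexosaminidase, with log2 fold changes of -1.36 (adjusted p 1.46e-13 by edgeR, SE 0.06) and -1.46, and Arsa, a sulfatase, with -1.08 and -1.25. The fall was thus uneven across enzymes of the same organelle.

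Genes of the lysosomal membrane and its proton pump were called in both directions. In WT libraries 9 of 14 and 9 of 16 were called, where 56.8% of all tested genes were, and in SIRT5F101L libraries 11 of 14 and 11 of 16, where 60.7% were. Of 14 tested membrane proteins, 5 fell and 4 rose in WT libraries, and 7 fell and 4 rose in SIRT5F101L libraries. Laptm5, known from blood cells, fell from 11.9 to 3.34 and 3.62 CPM and Laptm4a from 1360.1 to 659.98 and 650.4 CPM, while Laptm4b rose from 66.2 to 113 and 115 CPM and the transporter Abca2 from 31.5 to 70.9 and 74.9 CPM. Of 16 tested subunits of the V-ATPase, the pump that acidifies the lysosome, 6 fell and 3 rose in WT and 8 fell and 3 rose in SIRT5F101L libraries. Tcirg1 (log2 fold changes 0.98 and 0.86) and Atp6v0a2 (0.77 and 0.84), alternative forms of the membrane subunit a, rose. A further form, Atp6v0a1, fell (-0.37 and -0.37), as did Atp6v0d1 (-0.48 and -0.56) and Atp6v1b2 (-0.39 and -0.35).

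Genes that deliver cathepsins to the lysosome were followed as well. New cathepsins are tagged with mannose 6-phosphate by the phosphotransferase and carried by its receptors. Of 10 tested sorting genes, 4 rose and 3 fell in WT libraries, and 5 rose and 5 fell in SIRT5F101L libraries, where 60.7% of all tested genes were called. The phosphotransferase subunits moved apart, with Gnptab rising from 24.9 ± 1.37 to 62.3 ± 4.55 and 68.8 ± 9.85 CPM (SD, n = 4) and Gnptg falling from 52.6 ± 0.833 to 26.5 ± 0.956 and 25.4 ± 2.60 CPM. The receptor gene Igf2r rose by 0.46 and 0.47 on the log2 scale, and the adaptor Gga2 was at -0.76 and -0.80. Between the plasmid groups none of the tested genes of these lysosomal lists passed edgeR's test, where 0.0421% of all genes tested did. Without SIRT5F101L replicate 1, 15.2% of all genes tested passed. In the lists, 4 V-ATPase subunits, 3 hydrolases and activators, 2 sorting genes, 1 other protease and 1 membrane protein then did.

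**Figure D5:**
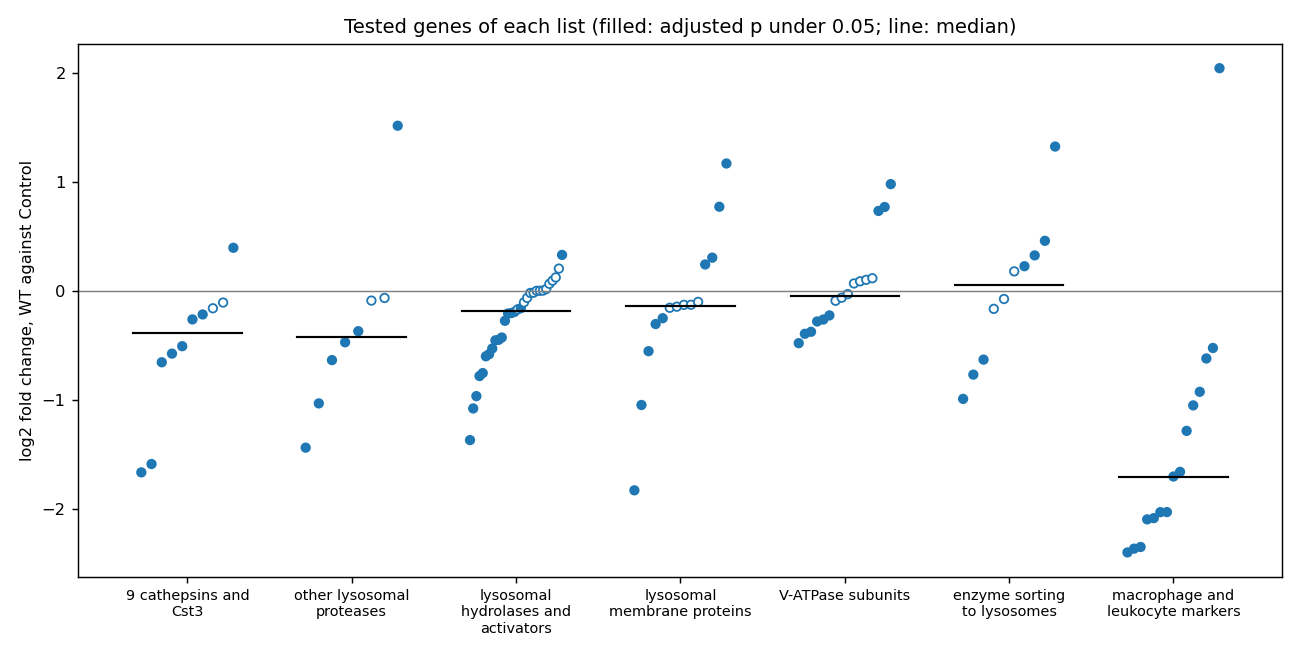
Log2 fold change of WT against Control (y axis) for the tested genes of the 9 cathepsins with Cst3, 5 other lysosomal lists and the macrophage and leukocyte markers (points, filled where the edgeR adjusted p was under 0.05, lines are medians). The median of the 10 genes with Cst3 lies at -0.38 (-0.26 for the 9 cathepsins), that of the other proteases at -0.42 and that of the V-ATPase at -0.04, and the markers' median lies at -1.70.

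Of 16 other cystatins only 5 could be tested. Stfa3, a stefin of the cell interior, had 0 counts in all Control libraries, 58 to 103 in WT and 77 to 148 in SIRT5F101L libraries. Taking 3 counts per library as the limit that a count of 0 allows, it was at least 27.1-fold higher in WT and at least 33-fold higher in SIRT5F101L libraries, with counting error only covered. Stfa3 has close relatives in the genome, so its counts are uncertain. Cst6 rose in WT libraries, from 31.2 ± 1.98 to 48.8 ± 6.13 CPM (SD, n = 4; log2 fold change 0.64, adjusted p 0.000836 by edgeR, SE 0.15), and was at 38.6 ± 12.1 CPM in SIRT5F101L libraries (0.31, adjusted p 0.0771 by edgeR, SE 0.15). The difference between the plasmid groups did not pass for Cst6 (-0.34, edgeR adjusted p 0.384). Cstb, the intracellular stefin B, was at 161, 176 and 155 CPM in Control, WT and SIRT5F101L libraries and did not pass, and neither did Fetub (2.05, 2.01 and 2.49 CPM) or Kng1 (1.53, 1.47 and 0.9998 CPM). The median log2 fold changes of the 5 were 0.13 and 0.25, and none passed the test as lower, where 28.1% and 30.7% of all tested genes did.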

How the data were processed

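Poly(A) RNA of 12 libraries was measured. The authors deposited raw counts per Ensembl gene ID, 1 column per library. Per the submitters' processing notes, FastQC 0.11.9, HISAT2 2.2.1, HTSeq 2.0.2 and DESeq2 1.38.3 were used with GRCm39 (mm39), and their roles, the annotation and the strand setting are not given in the sources used here. Genes were tested with edgeR 4.0.16 (R 4.3.3): TMM scaling, filterByExpr, 1 quasi-likelihood fit over all 12 libraries with 9 residual degrees of freedom, and Benjamini-Hochberg adjustment over 14253 genes at 0.05. Every count row had a gene ID, and 52029 of 57010 IDs were matched to a symbol. Transcript lengths, positions and exon overlaps came from GENCODE M21, copies from BLAST 2.17.0 and promoters from RefSeq (GRCm38.p6). The script was tested on simulated data. Alternatives were RLE and upper-quartile scaling, other filters, a robust prior, a length offset, only the 8 libraries compared, DESeq2 1.42.0 and leaving out each library. From each lysosomal, cystatin and MiT/TFE list, but not the cell type markers, the 2 highest and 2 lowest log2 fold changes called in both comparisons with Control at a mean of at least 1 CPM were named, and the tested genes of lists with 5 or fewer tested, except 1 gene that is not reported here. Atp6v0a1 was named beyond this rule, as a further form of subunit a. Marker lists are given as counts and sums, and the markers named were picked after their values were seen. The genes and lists were chosen with earlier results of these data known. The 4 endothelial markers summed to 3.5 to 4.53, 2.6 to 3.75 and 2.93 to 3.91 CPM in Control, WT and SIRT5F101L libraries, and none passed.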

Additional observations from a re-analysis of the deposited data

Results flagged for a closer look

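Of 33 groups of 4 libraries screened for a library far from the other 3, 4 were found, where chance gives about 1.65. The groups share libraries and so are not independent, and setting these numbers side by side is not a test. In 3 of the 4 found, SIRT5F101L replicate 1 lay above its group. Ctsl was at 2188 CPM in that library and at 1586 to 1639 CPM in the others. Ctsk was at 336 CPM against 261 to 268 CPM, and Ctsh at 109 CPM against 80.1 to 82.1 CPM. The other was Ctsa in WT replicate 3, at 553 CPM against 509.6 to 517 CPM.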

How the results depend on the processing

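The 21 alternatives gave 630 log2 fold changes for the 10 genes, of which 598 kept their direction and side of the threshold. Against Control, Ctsa, Ctsb, Ctsc, Ctsd, Ctsk, Ctss and Cst3 kept their calls in all of them in both comparisons. Leaving out 1 library gave 7 to 9 genes called in WT and 8 to 10 in SIRT5F101L libraries. Between the plasmid groups the count over all genes was 6, and it was 354 with no filter beyond 1 count, 2 with a robust prior, 22 with a length offset, 2 with only the 8 libraries, 44 with DESeq2, 0 to 2213 leaving out 1 library and 2882 without SIRT5F101L replicate 1 and WT replicate 1. Of the 10 genes, 0 to 5 were called leaving out 1 library and 5 without both. Signs turned there only for small differences: Ctsa was at -0.0409 to 0.00742 leaving out 1 library and -0.0458 without both, Ctsb at -0.0300 to 0.0375, -0.0543 without both and -0.0156 with the length offset, Ctsc at -0.0534 to 0.103 and -0.0576, and Ctss at -0.230 to 0.0257 and -0.262. The cause was not tested. No paired analysis was possible because the labels give no replicate numbers, and those used here only follow accession order. The depth limits Ctsc and Ctss most.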

Other observations

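The MiT/TFE transcription factors, which are known to switch on lysosomal genes, differed among themselves. Tfeb fell from 14.98 ± 1.23 CPM (SD, n = 4) in Control to 11.1 ± 0.998 in WT and 9.48 ± 2.30 in SIRT5F101L libraries (edgeR adjusted p 0.0120 and 0.000516). Mitf rose from 18.3 ± 1.45 CPM to 32.6 ± 3.99 and 41.9 ± 7.16 CPM (edgeR adjusted p 5.59e-06 and 3.11e-08). Tfec rose from 0.0919 to 0.893 and 1.37 CPM, with at most 36 counts in a library. Tfe3 is among the genes of the X chromosome listed at 0.

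Genes near Cst3 and Ctss were sought over the 8 plasmid libraries, on log2 CPM centred on Control, so that the size of the change from Control counts in the distance. Genes with only an ID, a Gm number or a Rik name were left out. Nearest to Cst3 were Fxyd6, Rcn3 and Sema3b, with root mean square differences of 0.0912, 0.114 and 0.137. For Ctss the nearest were Gfra4 (0.146), Cebpa (0.151) and Fxyd6 (0.152).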
